A study of Mus musculus with 12 samples.

Results

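The genes described are the TNF receptor and ligand superfamily, 39 protein-coding mouse genes among the 51826 genes of the count table. They were chosen by name, as every protein-coding gene whose symbol is that of a numbered member (Tnfrsf or Tnfsf), together with Tnf, Lta, Ltb, Ltbr, Cd27, Cd40, Cd70 and Ngfr. Of the 39 members, 24 are receptors and 15 are ligands.

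Ligands of this superfamily are trimers, most of them made as membrane proteins and in part released by proteases such as ADAM17. Their receptors signal through TRAF adaptors to the canonical and noncanonical NF-kB pathways and to MAP kinases, and those with a death domain can also start caspase-dependent or necroptotic cell death. In the B lineage the family includes the receptors of BAFF and APRIL, which keep mature B cells alive, and CD40, which receives help from T cells, whereas TNF and the lymphotoxins are cytokines that B cells themselves can release.

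The transcriptomes of 12 pre-B cell lines were sequenced to compare BCR-ABL1-transformed cells with their untransformed counterparts. Pre-B cells, the marrow precursors of B lymphocytes, grow in interleukin 7 (IL7), and BCR-ABL1 is the fusion kinase of the Philadelphia chromosome. Marrow cells of 2 C57BL/6 mice were grown for 7 days with IL7 and transduced with a retrovirus, either the empty vector pMIG (EV) or BCR-ABL1, which gave 3 lines per mouse and condition. All 12 lines had 48 h more of IL7. It was then removed for 1 week from the BCR-ABL1 lines, while EV lines stayed in IL7 for a similar time and were sorted for GFP. The condition therefore combines the fusion kinase, the absence of IL7 and the absence of the sort, and these cannot be told apart. Lines are named by mouse and letter, 2C for example being the line with letter C of mouse 2. Lines of one mouse share the animal. P-values over all 12 lines measure the spread between lines of 2 mice, and those within a mouse only the spread between its lines. In comparisons of the 2 mice each mouse is a single animal, so these p-values also measure the spread between lines.

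Each line had between 34791011 and 66011225 counts on genes, with the lowest total in EV line 2A, and 3 counts in a line, taken as the floor, correspond to 0.0433 to 0.0920 CPM. CPM values are counts scaled to a common library size by the TMM method, so that libraries of different depth can be compared. All 8 markers of the B lineage were above the floor in both conditions, and summed they reached 2510 to 4490 CPM with EV and 2710 to 3470 CPM with BCR-ABL1. Summed markers of each of 6 other lists (dendritic, myeloid, erythroid, T and NK, mast and basophil, stromal and endothelial) reached at most 3.76 CPM in any line. EV lines of mouse 2 stood above those of mouse 1 in myeloid markers (0.775 to 1.78 against 0.246 to 0.433 CPM) and in dendritic markers (0.559 to 1.32 against 0.184 to 0.375 CPM). The T and NK markers also stood higher in EV lines of mouse 2 (1.17 to 2.24 against 0.606 to 0.845 CPM). With BCR-ABL1 their sum stood lower in mouse 2 (0.436 to 0.669 against 1.15 to 3.76 CPM). Only 2 of these 8 markers exceeded the floor in any BCR-ABL1 line, and Klrb1c alone reached 3.68 CPM, so that difference is not one of the whole list. In bulk RNA of this kind, fewer cells that express a gene and less RNA per cell cannot be told apart.

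Of the 39 members, 22 passed the filter on low counts and were tested, 14 receptors and 8 ligands. BCR-ABL1 and EV lines were compared by edgeR's glmTreat, which asks whether a change exceeds 1.5-fold, and a gene was called where its p, adjusted over all 15038 genes by the Benjamini-Hochberg method (FDR), was under 0.05. Log2 fold changes are those of edgeR, each with a standard error (SE) from the spread of log2 CPM over 6 and 6 lines. Strictly, this SE belongs to the difference of mean log2 CPM, which can lie away from the edgeR value. That difference was 6.95 for Lta, 6.80 for Tnfsf11 and 3.42 for Tnfsf4, beside 5.22, 5.60 and 2.35 by edgeR. The ligands Tnf, Lta and Tnfsf11 and the receptors Tnfrsf1b and Tnfrsf21 were called higher in BCR-ABL1 lines, 5 of 22 against 5.99% of all tested genes. The receptors Cd40 and Tnfrsf13b were called lower, 2 of 22 against 6.49% of all tested genes. The log2 fold change was positive for 7 of 8 tested ligands and for 7 of 14 tested receptors, with medians of 1.80 and 0.12 beside -0.02 for all tested genes. These counts and medians are descriptions only, because Tnf, Tnfsf4 and Tnfsf11 passed the filter through the BCR-ABL1 lines and not through every EV line.

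**Figure D1:**
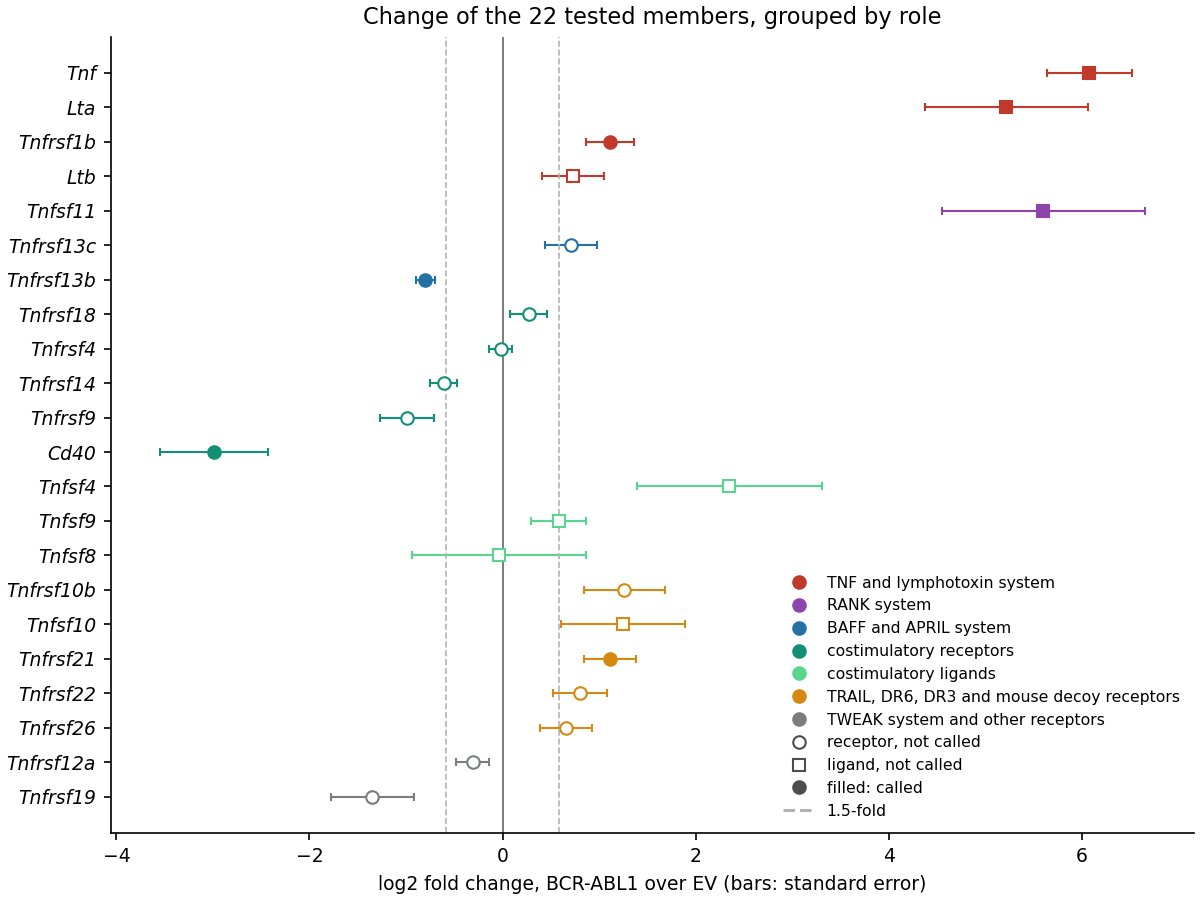
Log2 fold change (BCR-ABL1 over EV, edgeR) of the 22 tested members on the x axis. Bars are 1 SE of the difference of mean log2 CPM, drawn around the edgeR value. Circles are receptors, squares ligands, filled symbols called members, and dashed lines mark 1.5-fold. Tnf at 6.08, Tnfsf11 at 5.60 and Lta at 5.22 lie far to the right of the other members, and Cd40 at -2.99 is the leftmost.

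Conditions did not overlap in 8 of the 22 members. All BCR-ABL1 lines were above all EV lines in 6 (12.1% of all tested genes) and below them in 2 (13.5%). Tnf, Tnfsf4 and Tnfsf11 are among the 6, and they passed the filter through the BCR-ABL1 lines and not through every EV line. This count and the counts of higher members that follow are therefore descriptions only. Against no change instead of 1.5-fold, 8 members were higher (22.5% of all tested genes) and 5 lower (25.9%). The test was also run within each mouse. Mouse 1 alone gave 10 members higher (16.3% of its tested genes) and 3 lower (12.2%), and mouse 2 alone gave 3 higher (3.99%) and 1 lower (2.65%). With mouse as replicate block there were 6 members higher (7.49%) and 2 lower (7.18%). Values within each mouse are therefore given beside those of all lines.

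**Figure D2:**
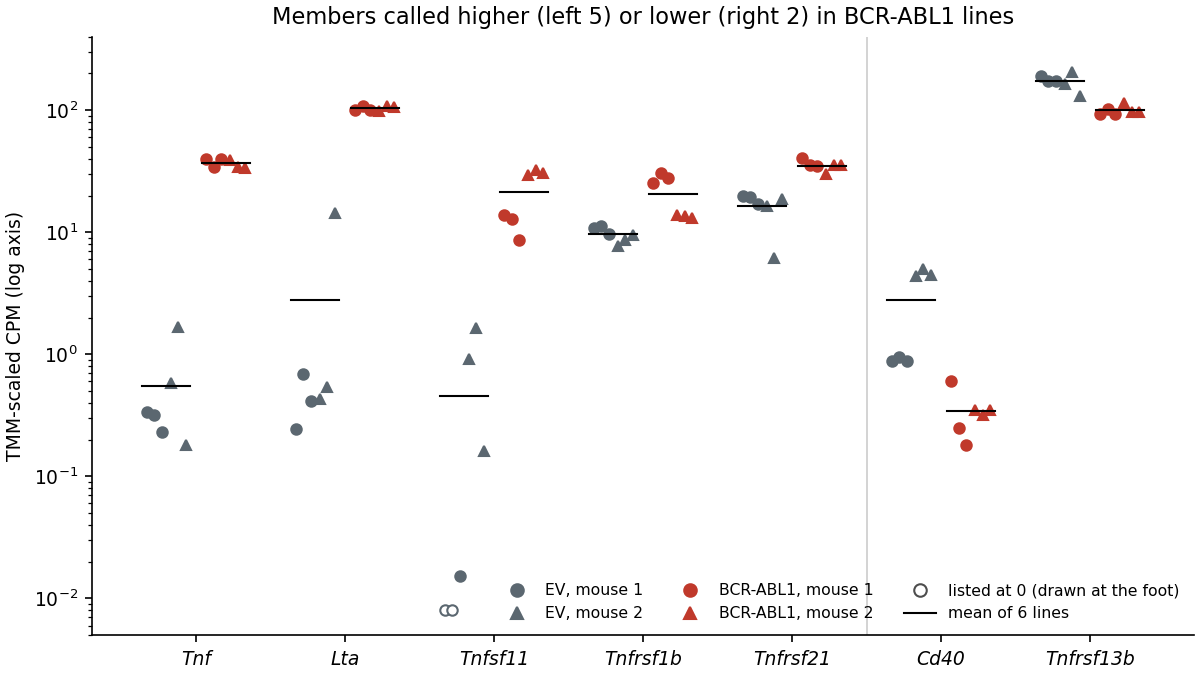
TMM-scaled CPM (log axis) of the 7 called members in each of the 12 lines, grey for EV and red for BCR-ABL1, circles for mouse 1 and triangles for mouse 2; bars are means of 6 lines and open symbols at the foot stand for 0. EV line 2C is the single high EV point of Lta, at 14.3 CPM, and Tnfsf11 is listed at 0 in EV lines 1A and 1B.

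Tnf and Lta, both called higher, are neighbours. Ltb, Tnf and Lta lie in this order within the same stretch of chromosome 17, with 3.06 kb between Ltb and Tnf and 1.16 kb between Tnf and Lta, and Ltb is read in the opposite direction to the other two. TNF and lymphotoxin alpha are homotrimeric cytokines that bind the same pair of TNF receptors, and lymphotoxin beta forms with lymphotoxin alpha the membrane trimer that binds the lymphotoxin beta receptor. The bases upstream of these genes and of Tnfsf11 are shown because Tnf and Lta were called and their neighbour Ltb was not, and because Tnfsf11, on another chromosome, had a change of like size. They are RefSeq sequences on GRCm38.p6, on the strand of the gene and 5′ to 3′, 250 bases up to the RefSeq start for Lta (chr17:35205352-35205601, minus strand), Tnf (chr17:35202008-35202257, minus strand) and Tnfsf11 (chr14:78308044-78308293, minus strand), and 182 bases for Ltb (chr17:35194257-35194438, plus strand), where 68 bases annotated as exon were left out. Capitals mark matches to a STAT motif (TTCNNNGAA) or to the NF-kB motif.
Lta: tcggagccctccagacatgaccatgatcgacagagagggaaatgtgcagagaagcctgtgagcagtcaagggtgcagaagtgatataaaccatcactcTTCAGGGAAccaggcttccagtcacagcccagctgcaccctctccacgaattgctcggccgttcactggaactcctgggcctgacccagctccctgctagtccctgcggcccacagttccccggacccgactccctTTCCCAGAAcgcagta
Tnf: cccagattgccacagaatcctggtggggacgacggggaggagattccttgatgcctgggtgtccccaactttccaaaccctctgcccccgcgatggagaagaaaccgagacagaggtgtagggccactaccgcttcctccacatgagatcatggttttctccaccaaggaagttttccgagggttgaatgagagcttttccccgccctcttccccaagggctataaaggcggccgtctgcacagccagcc
Ltb: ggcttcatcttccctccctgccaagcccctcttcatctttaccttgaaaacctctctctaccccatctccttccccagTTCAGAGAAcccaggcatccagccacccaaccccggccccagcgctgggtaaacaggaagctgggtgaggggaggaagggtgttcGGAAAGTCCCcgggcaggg
Tnfsf11: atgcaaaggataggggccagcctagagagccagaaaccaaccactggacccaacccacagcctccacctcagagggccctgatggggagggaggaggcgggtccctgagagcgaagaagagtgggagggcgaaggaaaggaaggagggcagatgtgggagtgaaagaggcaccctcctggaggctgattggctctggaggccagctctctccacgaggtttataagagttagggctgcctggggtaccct
Upstream of Lta there were 2 STAT matches, at 152 to 144 and at 16 to 8 bases before the start. Upstream of Ltb there was a STAT match (172 to 164 bases before the RefSeq start) and an NF-kB match on the other strand (87 to 78 bases), and the windows of Tnf and Tnfsf11 held none of the letters searched. A match is a description of letters and not a binding site.

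Motifs were searched on both strands in the 250 bases before every RefSeq start, a STAT motif (TTCNNNGAA), an AP-1 motif (TGANTCA) and NF-kB, without letting a palindromic match count more than once. Of all 32851 regions, 7.02% held the STAT, 6.75% the AP-1 and 3.90% the NF-kB motif. The table held a region for 30 of the 39 members, of which 7 had a STAT, 5 an AP-1 and 3 an NF-kB match in any of their regions, and 19 had none. Lta and Tnfrsf1b were the 2 members called higher with a STAT match, and Tnf, Tnfsf11 and Tnfrsf21 had no match to any of the 3 motifs.

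Tnf was 0.180 CPM in the lowest, 0.328 in the median and 1.67 in the highest EV line, and 33.9, 36.6 and 40.2 CPM in BCR-ABL1 lines. The highest EV line, 2B, was still far below every BCR-ABL1 line. The mean was 0.553 ± 0.564 CPM in EV and 36.9 ± 3.00 CPM in BCR-ABL1 lines (SD, n = 6 each), 66.7 times higher, for a log2 fold change of 6.08 (SE 0.44, edgeR glmTreat FDR = 1.45e-05). Tnf rose in both mice, with log2 fold changes of 7.01 in mouse 1 (FDR = 6.89e-11) and 5.47 in mouse 2 (FDR = 0.00912). It was called in all 12 fits that left out a line.

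Lta was between 0.245 and 0.693 CPM in 5 EV lines and 14.3 CPM in EV line 2C, which is 30.9 times the mean of the others. BCR-ABL1 lines were at 99.2 CPM in the lowest, 104 in the median and 109 in the highest line. The lowest of them was 6.92 times above EV line 2C. Over all lines Lta changed by 5.22 on the log2 scale (SE 0.84, edgeR glmTreat FDR = 0.00462), and by 7.79 if EV line 2C was left out (FDR = 9.42e-09). Lta rose in mouse 1 (log2 fold change 7.79, FDR = 2.18e-10), whereas mouse 2 alone, which contains EV line 2C, gave 4.34 and was not called (FDR = 0.130). In BCR-ABL1 lines the ratio of the 2 cytokines had a narrow range, with Lta CPM at 2.51 to 3.17 times Tnf CPM. In EV lines the ratio was 0.321 to 2.18, except for 79.5 in line 2C, where Lta was highest and Tnf was lowest of the EV lines.

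Ltb, 3.06 kb away from Tnf, was 1.40 CPM in the lowest, 1.79 in the median and 4.45 in the highest EV line, and 3.61, 3.95 and 5.31 CPM in BCR-ABL1 lines. The conditions overlapped, because EV lines 2A and 2C reached the level of BCR-ABL1 lines. A log2 fold change of 0.73 for Ltb was not called (SE 0.32, edgeR glmTreat FDR = 0.525), against 1.56 in mouse 1 (FDR = 0.000257) and 0.18 in mouse 2 (FDR = 1).

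**Figure D3:**
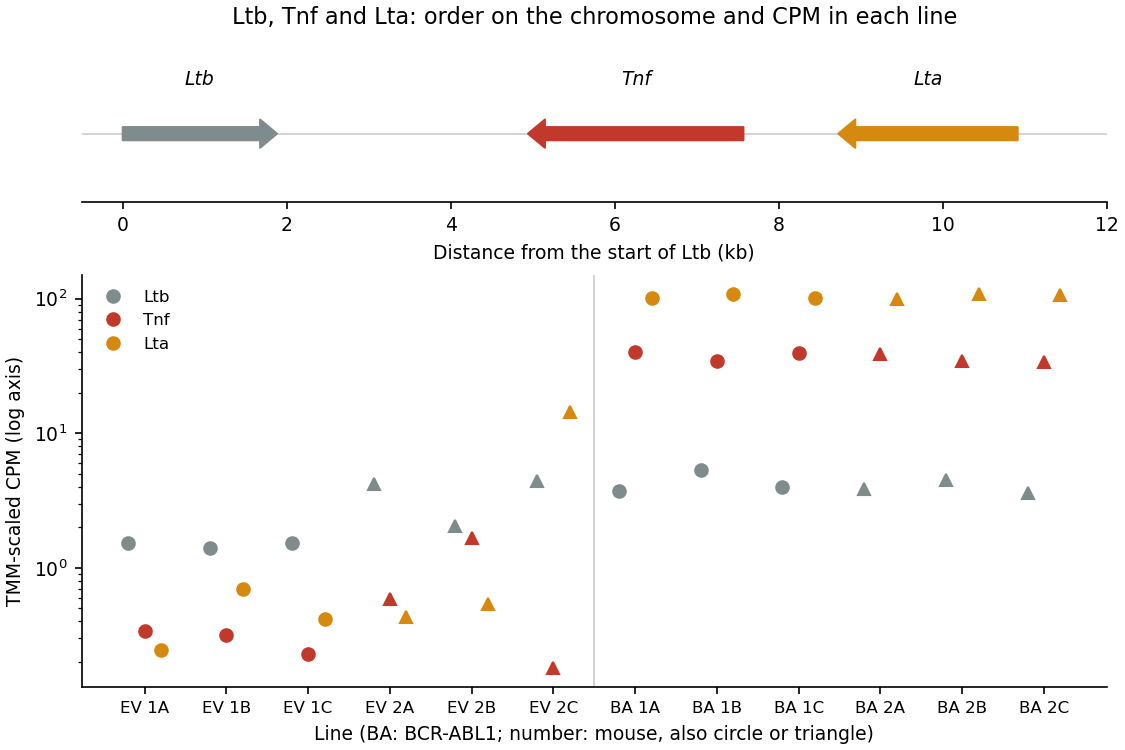
Top, Ltb, Tnf and Lta drawn to scale by distance from the start of Ltb in kb, with arrows along the direction of transcription; bottom, TMM-scaled CPM (log axis) of the 3 genes in each line, with BA for BCR-ABL1, circles for mouse 1 and triangles for mouse 2. Tnf and Lta are separated from all EV lines in every BCR-ABL1 line while Ltb overlaps, and EV line 2C has Lta at 14.3 and Tnf at 0.180 CPM.

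Among the receptors of these cytokines, Tnfrsf1b, the TNF receptor without a death domain, was present in all lines. It was 7.70 CPM in the lowest, 9.61 in the median and 11.2 in the highest EV line, and 13.1, 19.6 and 30.4 CPM in BCR-ABL1 lines. The conditions did not overlap, but within the BCR-ABL1 lines the 3 of mouse 1 (25.4 to 30.4 CPM) stood above the 3 of mouse 2 (13.1 to 13.8 CPM). Over all lines it changed by 1.11 on the log2 scale (SE 0.25, edgeR glmTreat FDR = 0.0470), by 1.40 in mouse 1 (FDR = 6.01e-06) and by 0.66 in mouse 2 (FDR = 0.528). Tnfrsf1b was close to the threshold: it was called only in the 3 fits that left out BCR-ABL1 line 2A, 2B or 2C, and FDRs over the 12 omissions ran from 0.0237 to 0.111.

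Tnfrsf1a, the death domain receptor of TNF, did not pass the filter. It was 0.981 CPM in EV line 2A and 0.739 CPM in EV line 2C, at most 0.0596 CPM in the other EV lines, and listed at 0 in all 6 BCR-ABL1 lines. Counts of 0 allow up to 0.0456 to 0.0682 CPM in these lines, and only counting error is covered by this limit. Ltbr, the lymphotoxin beta receptor, exceeded the floor in EV line 2A alone, with 9 counts (0.276 CPM). Myeloid markers summed to 1.78, 0.775 and 0.793 CPM in EV lines 2A, 2B and 2C. Their sums were 0.246 to 0.433 CPM in EV lines of mouse 1 and 0.436 to 0.857 CPM with BCR-ABL1. Stromal and endothelial markers summed to 1.87, 1.77 and 0.0902 CPM in EV lines 2A, 2B and 2C. In EV lines of mouse 1 they summed to 0.332 to 0.640 CPM and with BCR-ABL1 to 0.0418 to 0.119 CPM. The part of other cells in these receptor counts was not tested.

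Tnfsf11 encodes RANK ligand, the cytokine that drives osteoclast formation. It was listed at 0 in EV lines 1A and 1B, at 0.0154 CPM in 1C, and at 0.920, 1.63 and 0.162 CPM in EV lines 2A, 2B and 2C. BCR-ABL1 lines had 13.8, 12.8 and 8.57 CPM in mouse 1 and 29.2, 32.6 and 30.6 CPM in mouse 2. The conditions were far apart, and in either condition mouse 2 was the higher mouse. Over all lines this gave a log2 fold change of 5.60 (SE 1.05, edgeR glmTreat FDR = 0.00599), and Tnfsf11 was called in all 12 fits that left out a line. In mouse 1, where no EV line had more than 1 count, Tnfsf11 was at least 241-fold higher with BCR-ABL1, computed against the floor of 3 counts per EV line. In mouse 2 the log2 fold change was 5.12 (FDR = 0.0111). Both receptors of RANK ligand were below the filter on low counts. Tnfrsf11a (RANK) had at most 4 counts in a line and was above the floor in 2 lines, and Tnfrsf11b (the decoy receptor osteoprotegerin) had 0 in all 12.

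The BAFF and APRIL system was represented by 2 tested receptors, of which 1 was called. Tnfrsf13b (TACI, which binds both cytokines) was 131 CPM in the lowest, 174 in the median and 204 in the highest EV line, and 92.6, 97.2 and 114 CPM in BCR-ABL1 lines. The conditions did not overlap. TACI transcripts thus had a log2 fold change of -0.80 (SE 0.10, edgeR glmTreat FDR = 0.0482), -0.89 in mouse 1 (FDR = 0.000345) and -0.68 in mouse 2 (FDR = 0.509). This call was at the threshold. Its glmTreat FDR was 0.0502 with mouse as replicate block and 0.0611 with edgeR's likelihood ratio fit. Of the 12 omissions of a line, only those of EV line 2A, EV line 2C or BCR-ABL1 line 2A kept the call (FDR from 0.00280 to 0.140).

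Tnfrsf13c (the BAFF receptor) was 6.23 CPM in the lowest, 10.7 in the median and 22.7 in the highest EV line, and 19.0, 20.4 and 23.9 CPM in BCR-ABL1 lines. EV line 2B was the one EV line at the level of BCR-ABL1 lines. The BAFF receptor's log2 fold change of 0.71 was not called (SE 0.27, edgeR glmTreat FDR = 0.496), against 1.13 in mouse 1 (FDR = 3.51e-05) and 0.35 in mouse 2 (FDR = 1). Tnfrsf17 (BCMA, the receptor of plasma cells) had at most 4 counts in a line and Tnfsf13b (BAFF) at most 19, and both were below the filter.

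Cd40 fell most among the costimulatory receptors. EV lines of mouse 1 had 0.885, 0.953 and 0.875 CPM and EV lines of mouse 2 had 4.42, 5.03 and 4.47 CPM, whereas BCR-ABL1 lines had 0.182 CPM in the lowest, 0.333 in the median and 0.610 in the highest line. Every BCR-ABL1 line was below every EV line, and the level of the EV lines differed more between the mice than the level of the BCR-ABL1 lines. This amounts to a log2 fold change of -2.99 (SE 0.56, edgeR glmTreat FDR = 0.00448), -1.31 in mouse 1 (FDR = 0.0484) and -3.75 in mouse 2 (FDR = 0.000662). Cd40 was called in all 12 fits that left out a line. Dendritic cells also express Cd40, and their 4 markers summed to 0.184 to 1.32 CPM in EV lines, against 0.0193 to 0.125 CPM with BCR-ABL1, with the higher EV values in mouse 2. Their part in the result was not tested.

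Tnfrsf14 (HVEM, the receptor of LIGHT and of lymphotoxin alpha) was 8.58 CPM in the lowest, 11.2 in the median and 15.3 in the highest EV line, and 6.57, 7.74 and 8.88 CPM in BCR-ABL1 lines. Only EV line 2C lay within the range of the BCR-ABL1 lines. Tnfrsf14 was not called, with a log2 fold change of -0.61 (SE 0.14, edgeR glmTreat FDR = 0.652), -0.36 in mouse 1 (FDR = 1) and -0.85 in mouse 2 (FDR = 0.312). Tnfrsf18 (GITR) was at 8.94 to 10.6 CPM in mouse 1 and 15.0 to 18.6 CPM in mouse 2 with EV, and at 14.4 to 19.4 CPM with BCR-ABL1. EV lines of mouse 2 thus overlapped with the BCR-ABL1 lines and EV lines of mouse 1 did not, and the log2 fold change over all lines was 0.27 (SE 0.19, edgeR glmTreat FDR = 1), with 0.78 in mouse 1 (FDR = 0.0582) and -0.12 in mouse 2 (FDR = 1). Of the exonic bases of Tnfrsf18, 27.2% lie opposite the antisense gene Gm16008, so that reads of both could be mixed if strand was not used in counting.

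Tnfsf4 (OX40 ligand) had at most 1 count in EV lines of mouse 1, 1.13, 0.516 and 0.667 CPM in EV lines 2A, 2B and 2C, and 1.65 CPM in the lowest, 1.79 in the median and 2.33 in the highest BCR-ABL1 line. The conditions did not overlap. Tnfsf4 was not called over all lines, at a log2 fold change of 2.35 (SE 0.96, edgeR glmTreat FDR = 0.174), but was called with mouse as replicate block (3.21, FDR = 0.0316). In mouse 1 it was at least 37.7-fold higher with BCR-ABL1, computed against the same floor, and in mouse 2 the log2 fold change was 1.38 (FDR = 0.127).

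Tnfsf8 (CD30 ligand) differed between the mice in both conditions. In mouse 1, EV lines had 19.6 to 24.3 CPM against 18.9 to 22.0 CPM with BCR-ABL1, and in mouse 2 the values were 1.29 to 4.56 and 3.55 to 4.41 CPM. Over all lines its change was -0.04 on the log2 scale (SE 0.90, edgeR glmTreat FDR = 1), and mouse 2 was lower than mouse 1 by edgeR's quasi-likelihood test both within EV lines (log2 difference -2.93, FDR = 0.000103) and within BCR-ABL1 lines (-2.35, FDR = 0.00143).

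Tnfrsf21 (DR6, a death domain receptor) was called higher. It was 6.16 CPM in the lowest, 17.9 in the median and 19.7 in the highest EV line, and 30.1, 35.4 and 40.3 CPM in BCR-ABL1 lines. The conditions did not overlap, and EV line 2B stood below the other EV lines. Its rise was 1.11 on the log2 scale (SE 0.27, edgeR glmTreat FDR = 0.0385), 0.98 in mouse 1 (FDR = 0.000397) and 1.30 in mouse 2 (FDR = 0.214). The call was lost in 7 of the 12 omissions, those of EV lines 1C and 2A and of BCR-ABL1 lines 1A, 1B, 1C, 2B and 2C, with FDRs up to 0.0745.

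Tnfsf10 (TRAIL) and Tnfrsf10b, its death receptor in the mouse, had opposite patterns in the 2 mice. In mouse 1, Tnfsf10 went from 0.599 to 0.809 CPM with EV up to 6.38 to 8.82 CPM with BCR-ABL1, but the ranges were 2.36 to 6.20 and 2.56 to 3.03 CPM in mouse 2. Expressed as log2 fold changes these are 3.51 in mouse 1 (edgeR glmTreat FDR = 1.73e-07), -0.39 in mouse 2 (FDR = 1) and 1.25 over all lines (SE 0.64, FDR = 0.382). Tnfrsf10b was at 1.32 to 1.69 CPM with EV and at 1.46 to 1.82 CPM with BCR-ABL1 in mouse 1, but at 0.325 to 0.795 and 3.06 to 3.57 CPM in mouse 2. The receptor had log2 fold changes of 0.15 in mouse 1 (edgeR glmTreat FDR = 1), 2.56 in mouse 2 (FDR = 0.0134) and 1.26 over all lines (SE 0.42, FDR = 0.128). In mouse 1 the ligand rose and in mouse 2 the receptor rose, and over all lines neither was called.

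Tnfrsf26, one of 3 neighbouring receptors on chromosome 7 that include the mouse TRAIL decoy receptors Tnfrsf22 and Tnfrsf23, was 7.65 CPM in the lowest, 8.22 in the median and 19.0 in the highest EV line, and 11.3, 16.7 and 22.7 CPM in BCR-ABL1 lines. It rose in mouse 1 (log2 fold change 1.37, edgeR glmTreat FDR = 6.11e-06), with -0.03 in mouse 2 (FDR = 1) and 0.66 over all lines (SE 0.27, FDR = 0.607). EV line 2B had the highest EV value, and the other EV lines of mouse 2, 2A and 2C, were at 12.5 and 7.90 CPM.

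Tnfrsf19 (TROY), an orphan receptor best known from the nervous system and from stem cells, was among the most abundant members. It was 30.7 CPM in the lowest, 54.3 in the median and 115 in the highest EV line, and 10.5, 24.4 and 39.7 CPM in BCR-ABL1 lines. The conditions overlapped through EV line 2C, the lowest EV line, and EV line 2A was the highest. Its log2 fold change of -1.35 was not called (SE 0.43, edgeR glmTreat FDR = 0.0934). It was called with mouse as replicate block (-1.51, FDR = 0.0175), with the likelihood ratio fit (FDR = 0.0479) and without EV line 2C (-1.48, FDR = 0.0474). In mouse 1 it fell by 2.06 on the log2 scale (FDR = 3.86e-06), and in mouse 2 the value was -0.94 (FDR = 0.526).

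The other 5 tested members, Tnfrsf4, Tnfrsf9, Tnfrsf12a, Tnfrsf22 and Tnfsf9, had group means between 0.178 and 3.39 CPM and log2 fold changes between -0.99 (Tnfrsf9) and 0.80 (Tnfrsf22), and none was called (edgeR glmTreat, FDR of 0.207 or more). Conditions overlapped in all 5. Tnfrsf4 (OX40), which lies 9.55 kb from Tnfrsf18 on chromosome 4, had the closest means, 2.76 ± 0.433 CPM in EV and 2.72 ± 0.403 CPM in BCR-ABL1 lines (SD, n = 6 each).

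Levels of different members were compared per kb of merged exons, as mean CPM per kb over the 6 lines of a condition. In EV lines Tnfrsf13b was at 61.0 and Tnfrsf19 at 12.7 CPM per kb, ahead of Tnfrsf18 (8.71) and Tnfrsf14 (8.19). In BCR-ABL1 lines the highest member was Lta, at 75.4 CPM per kb, ahead of Tnfrsf13b (35.1) and Tnf (22.5). Tnfrsf18 (10.5), Tnfrsf13c (10.1) and Tnfsf11 (9.51) followed at levels that did not stand clear of each other, since Tnfsf11 alone varied from 8.57 to 32.6 CPM between these lines.

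**Figure D4:**
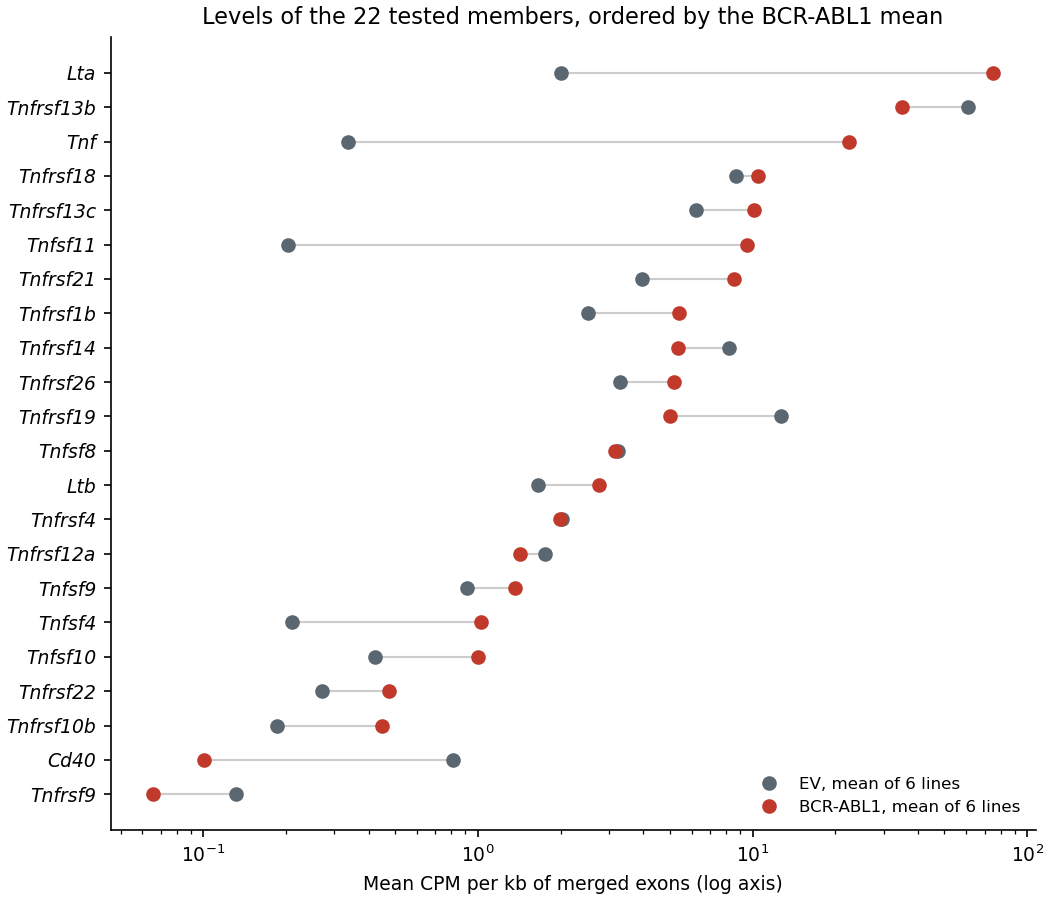
Mean CPM per kb of merged exons (log axis) of the 22 tested members, grey for EV and red for BCR-ABL1 lines (means of 6 lines), ordered by the BCR-ABL1 mean. Receptors lead in EV lines, with Tnfrsf13b at 61.0, and Lta leads in BCR-ABL1 lines, at 75.4.

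The change between EV and BCR-ABL1 lines differed between the mice in 9 of the 22 tested members (16.9% of all tested genes). This was tested by the interaction of mouse and condition in edgeR's quasi-likelihood test (FDR under 0.05). The count is a description only, because Tnfsf4 and Tnfsf11, both among the 9, passed the filter through the BCR-ABL1 lines. The change was smaller or more negative in mouse 2 in 8 of the 9 members. The largest differences were those of Tnfsf4 and Tnfsf11. Their size depends on the default prior count of edgeR's fit, because EV lines of mouse 1 were at or under the floor. Next were Tnfsf10 (log2 difference of changes -3.90, FDR = 0.000234), Cd40 (-2.43, FDR = 0.00472) and, in the other direction, Tnfrsf10b (2.41, FDR = 0.00130). Ltb (-1.38, FDR = 0.0278), Tnfrsf26 (-1.40, FDR = 0.0171), Tnfrsf18 (-0.91, FDR = 0.00776) and Tnfrsf1b (-0.75, FDR = 0.00765) were the others. Of these 9 calls, 7 held in all 12 omissions of a line, although one of these, that of Tnfrsf1b, was lost without the filter on low counts. That of Tnfsf11 was lost without EV line 1B (FDR = 0.0596), and that of Ltb was lost in 8 omissions (EV lines 1A, 1B, 1C and 2A and BCR-ABL1 lines 1B, 1C, 2A and 2C) and kept in 4, with FDRs from 0.00116 to 0.0780. The changes of Tnf (FDR = 0.169) and Lta (FDR = 0.114) were not called different between the mice. Without EV line 2C that of Tnf was (FDR = 0.00124), and without EV line 2A or 2B that of Lta was (lowest FDR = 0.0256). Both were also called different without the filter on low counts.

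In a comparison of the 2 mice that was added after seeing these values, 9 members differed between the mice within EV lines (24.8% of all tested genes) and 5 within BCR-ABL1 lines (5.97%), by edgeR's quasi-likelihood test. Ligands made up 6 of the 9 in EV lines, beside 8 of the 22 tested members. This count is a description only, because Tnfsf4 and Tnfsf11 passed the filter through the BCR-ABL1 lines and not through every EV line. Tnfsf4, Tnfsf11, Tnfsf10, Lta and Ltb were higher and Tnfsf8 was lower in EV lines of mouse 2, although for Lta the difference (FDR = 0.0365) came with EV line 2C at 14.3 CPM and the other 5 EV lines at 0.693 CPM or less. EV lines of mouse 2 also had more myeloid, dendritic and T and NK marker RNA, as given above, and the part of such cells was not tested.

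**Figure D5:**
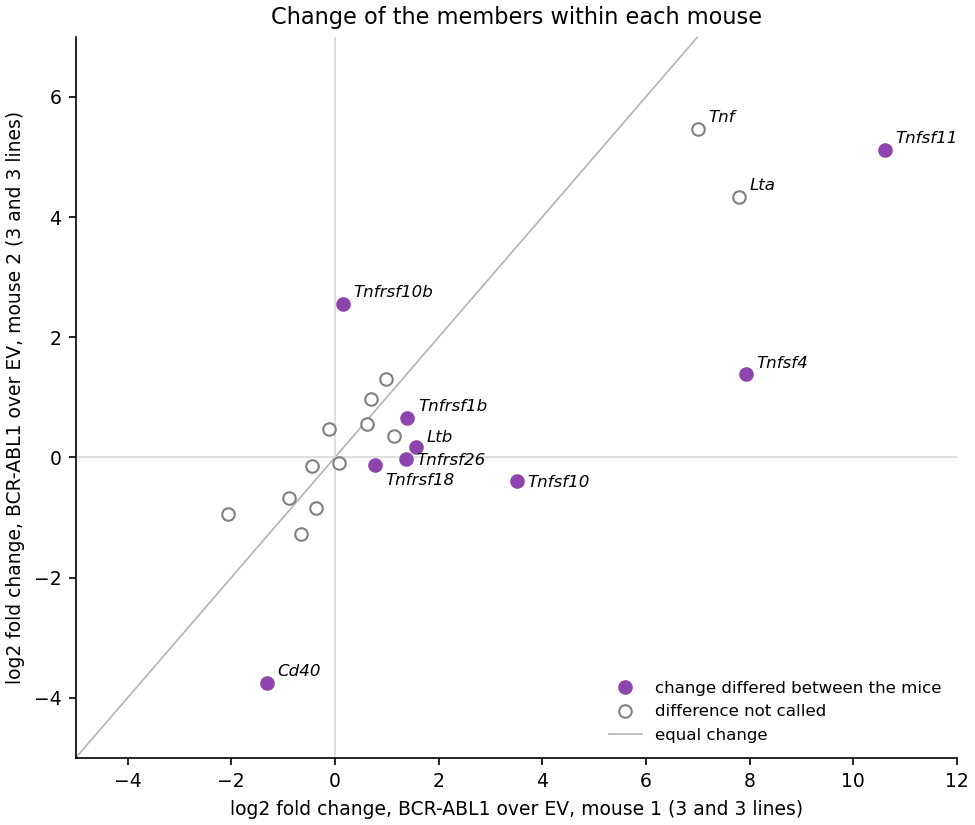
Log2 fold change (BCR-ABL1 over EV, edgeR) in mouse 1 on the x axis and in mouse 2 on the y axis, 3 and 3 lines each, for the tested members; filled points are the 9 members whose change differed between the mice and the line marks equal change. Tnfsf10 (3.51 and -0.39) and Tnfrsf10b (0.15 and 2.56) lie on opposite sides of the line, and the fitted values of Tnfsf11 and Tnfsf4 in mouse 1 rest on EV lines at or near 0.

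The 17 members below the filter were Cd27, Cd70, Ltbr, Ngfr, Tnfrsf11a, Tnfrsf11b, Tnfrsf17, Tnfrsf1a, Tnfrsf23, Tnfrsf25, Tnfrsf8, Tnfsf12, Tnfsf13, Tnfsf13b, Tnfsf14, Tnfsf15 and Tnfsf18. Of these, 6 had no more than 3 counts in any line, among them Cd27 (at most 1 count) and its ligand Cd70 (at most 3). The highest counts were 41 for Tnfrsf1a, 19 for Tnfrsf23 and for Tnfsf13b, 9 for Ltbr, 8 for Tnfsf14, 6 for Tnfrsf25 and 5 for Ngfr. Tnfrsf11a, Tnfrsf17, Tnfrsf8 and Tnfsf15 had at most 4. Counts of Tnfsf12 (TWEAK) and Tnfsf13 (APRIL) are uncertain, because 48.3% and 60.0% of their exonic bases are shared with the readthrough gene Tnfsfm13 on the same strand and reads there could not be assigned to either gene.

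Below the receptors, 48 genes of TNF receptor signaling were examined, which are adaptors and ubiquitin ligases, death arm genes, kinases, NF-kB subunits, inhibitors and shedding proteases. All 48 were tested, 3 were called lower and 0 higher by edgeR's glmTreat, with a median log2 fold change of -0.12. Of all tested genes, 5.99% were called higher and 6.49% lower, so the share called lower was near that background. EdgeR's test against no change called 10 higher (22.5% of all tested genes) and 19 lower (25.9%). At an unadjusted p under 0.05, 2 genes were higher (Traf3 and Ripk3) and 5 lower, and DESeq2 called 0 higher and 2 lower. For the unadjusted p and for DESeq2 the share of all tested genes is not given here. Those counts are therefore descriptions only. The called genes were Nfkb2 and Relb, which form the main NF-kB dimer of the noncanonical pathway, and Tnfaip3 (A20), an inhibitor of NF-kB signaling.

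Nfkb2 was 36.9 CPM in the lowest, 42.5 in the median and 64.7 in the highest EV line, and 12.6, 14.5 and 16.1 CPM in BCR-ABL1 lines, without overlap. Nfkb2 had a log2 fold change of -1.66 (SE 0.14, edgeR glmTreat FDR = 5.61e-05), -1.39 in mouse 1 (FDR = 2e-06) and -1.88 in mouse 2 (FDR = 0.00787). Relb was 11.6, 15.4 and 24.6 CPM in EV and 4.12, 5.91 and 7.25 CPM in BCR-ABL1 lines, in the same order and without overlap. Relb had a log2 fold change of -1.51 (SE 0.20, edgeR glmTreat FDR = 0.00139), with -1.64 in mouse 1 (FDR = 8e-06) and -1.39 in mouse 2 (FDR = 0.0735). Both genes were called in all 12 omissions of a line. Tnfaip3 was 18.8, 21.9 and 38.4 CPM in EV and 10.2, 10.6 and 15.9 CPM in BCR-ABL1 lines, and the change of -1.14 on the log2 scale (SE 0.22, edgeR glmTreat FDR = 0.0248) differed between the mice (-0.55 and -1.61, interaction FDR = 0.0121). Its call was lost without EV line 2A, EV line 2B or BCR-ABL1 line 2B, with FDRs up to 0.0519.

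All 5 NF-kB subunits and all 8 inhibitors of the list had negative log2 fold changes, and 4 of the 5 subunits and 4 of the 8 inhibitors lay below the EV lines in every BCR-ABL1 line (13.5% of all tested genes did). Of all tested genes, 48.3% had a positive log2 fold change. Apart from Nfkb2, Relb and Tnfaip3 these were not called. Ripk3, the kinase of necroptosis, was 4.74 CPM in the lowest, 9.06 in the median and 9.91 in the highest EV line, and 13.5, 14.9 and 17.4 CPM in BCR-ABL1 lines. Ripk3 was not called over all lines, at a log2 fold change of 0.94 (SE 0.21, edgeR glmTreat FDR = 0.0866). It was called with mouse as replicate block (FDR = 0.0497) and in mouse 1 alone (0.79, FDR = 0.0288), but not in mouse 2 alone (1.15, FDR = 0.185). Of the 12 omissions of a line, 0 called Ripk3. Traf3 was higher in every BCR-ABL1 line too and was not called (0.86, SE 0.15, edgeR glmTreat FDR = 0.0664), with a call in 3 of the 12 omissions.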

How the data were processed

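RNA of 6 EV and 6 BCR-ABL1 pre-B cell lines was sequenced from strand-specific total RNA libraries. The authors deposited whole-number read counts per gene for the 12 lines, not normalized and not pooled. The submitters' processing notes name FastQC 0.11.5, Trimmomatic 0.36, TopHat2 2.1.1, Bowtie2 2.3.2, featureCounts 1.5.3, R 3.6.1, edgeR 3.18.1 and GRCm38. The annotation release and the strand setting of the counting are not given in the sources used here. Condition, mouse and letter were taken from the sample labels, and 0 columns were left unused.

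Symbols and exon lengths came from GENCODE M21 on GRCm38, which named 51633 of the 51826 genes. Counts were filtered with filterByExpr (minimum 10 counts, about 0.190 CPM, in at least 6 lines), normalized by TMM and tested in R 4.3.3 with edgeR 4.0.16 over 15038 genes, by glmTreat on the quasi-likelihood fit at 1.5-fold with p-values adjusted by Benjamini-Hochberg and an FDR limit of 0.05. Log2 CPM used a prior count of 2, whereas the edgeR fits used edgeR's default prior count. DESeq2 1.42.0 was an alternative, beside RLE size factors, other filters, the likelihood ratio fit, a no-change test, a replicate block of mouse or of line number (mouse and letter), each mouse alone and omission of each line. In simulated counts, 189 of 195 genes changed by 2 on the log2 scale were recovered among 14998 genes and 0 others were called. For the interaction these were 142 of 200 with 7 others among 15010 genes. Simulated lines had no baseline difference between the mice, whereas 24.8% of all tested genes differed between the mice within EV lines. The simulation therefore does not measure how the main test behaves on these lines.

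Members described in full were those called, those with a mean of at least 5 CPM over the 12 lines, and those whose call changed with the mouse block or whose change differed between the mice. Of the pathway list, up to 5 called genes per direction were to be named, and Traf3 and Ripk3 were named after their values were seen. The members and lists were chosen with earlier results of these data known. Equal first digits of line names mark the same mouse by the labels. Deviations from the condition means correlated at 0.0853 to 0.240 between EV and BCR-ABL1 lines of one mouse and at -0.203 to -0.0636 between mice, whereas lines of equal letter, after removal of mouse means, were at -0.109 to 0.0856, so mouse pairs the lines and the letter does not. Chi-square statistics between lines of one mouse and condition were 9.36 to 434 per gene, and no pair was treated as one library. Those of EV line 2C against EV lines 2A and 2B were 270 and 434, and all other pairs were at 78.1 or less. EV line 2C thus stood apart from the other EV lines of mouse 2 over all genes.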

Additional observations from a re-analysis of the deposited data

Results flagged for a closer look

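A Dixon test was run in 34 groups of 6 lines (17 members described in full, 2 conditions), and 4 values stood apart from the others of their group. Chance gives about 1 in 20 groups where values are independent and from a single normal population. Here each group pools lines of 2 mice and the same lines recur for every member, so the 4 flags cannot be set against that rate. Lta was 14.3 CPM in EV line 2C, against at most 0.693 CPM in the other 5. Tnf was 1.67 CPM in EV line 2B, and the next highest EV line had 0.583 CPM. Tnfrsf19 was 115 CPM in EV line 2A, followed by 58.4 CPM. Tnfrsf21 was 6.16 CPM in EV line 2B, below 16.5 CPM in the next. All 4 values are from EV lines of mouse 2.

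The change with BCR-ABL1 differed between the mice by edgeR's interaction test in 9 members, as mouse 2 minus mouse 1 on the log2 scale. It was -6.52 for Tnfsf4 and -5.48 for Tnfsf11. These values depend on the default prior count of edgeR's fit, since EV lines of mouse 1 had at most 1 count of either gene. The difference was -3.90 for Tnfsf10, -2.43 for Cd40, -1.40 for Tnfrsf26, -1.38 for Ltb, -0.91 for Tnfrsf18 and -0.75 for Tnfrsf1b. Tnfrsf10b was the member with a positive difference, 2.41.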

How the results depend on the processing

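Tnf, Tnfsf11 and Cd40 were called under every alternative that tested them, and Lta under all but mouse 2 alone. Members called higher (5) were 3 with DESeq2 or in mouse 2 alone, 10 in mouse 1 alone, 8 against no change, and 3 to 5 when a line was left out. Members called lower (2) were 1 with RLE size factors, without filter, with a filter of at least 1 CPM in 6 lines, with DESeq2, with line number as replicate block or in mouse 2 alone, 5 against no change, and 1 to 3 when a line was left out. The likelihood ratio fit also gave 2, but with Tnfrsf19 (glmTreat FDR = 0.0479) in place of Tnfrsf13b (FDR = 0.0611). Tnfrsf13b was called in 3 of the 10 alternatives other than omissions of a line. Pathway genes called higher (0) were 1 with RLE size factors (Traf3), mouse as replicate block (Ripk3) or mouse 2 alone, 4 in mouse 1 alone, 10 against no change, and 0 to 2 when a line was left out. Those called lower (3) were 19 against no change. The fold change turned its sign in mouse 2 alone for Tnfsf10 (-0.39), Tnfrsf18 (-0.12), Tnfrsf26 (-0.03) and Tnfsf8 (0.47), and for Tnfsf8 also with mouse (0.16) or line number (0.23) as replicate block and between -0.31 and 0.26 over the omissions of a line. The cause was not tested. With mouse as replicate block 6 members were higher and 2 lower. The block ended the call of Tnfrsf13b, added Tnfsf4, Tnfrsf19 and Ripk3, and changed no other call of members or pathway genes. Its glmTreat FDR was 7.54e-06 for Tnf, 0.0018 for Lta, 0.000271 for Tnfsf11, 0.0038 for Cd40, 0.0094 for Tnfrsf1b and 0.0265 for Tnfrsf21. The main test had no term for mouse. The 9 members that differed between the mice were 7 to 12 over all alternatives. Of 169 other values for the 17 members described in full, 135 kept direction and side of the threshold. RLE scaling moved the median log2 fold change of all genes by 0.023. Members under 3 counts per line cannot be compared at this depth.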
